A study of Sus scrofa with 3 samples.

Results

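TRH, LVRN, STAC, PHYHIPL and CYSLTR2 are 5 pig genes whose counts were higher in bone marrow attached cells (BMAC, as the library is labelled) than in the 2 other populations of the study. They were chosen from their measured levels, as 5 symbols among the 26466 in the count data, so their excess in BMAC is given as a description and was not tested. All 5 had a single row of counts and were measured in every library. The study holds 1 library each of BMAC, of mesenchymal stem cells from bone marrow (BM-MSC) and of peripheral blood mononuclear cells (PBMC), and its stated aim was to compare the expression profiles of these populations. The labels name no animal, breed, sex, age, culture or treatment for any of them, and do not say how the attached cells were obtained.

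The genes have separate known roles. TRH encodes the precursor of thyrotropin-releasing hormone, a short amidated peptide best known from the hypothalamus, which acts through the receptor TRHR on pituitary cells and is cut by the membrane peptidase TRHDE. LVRN encodes laeverin, a zinc aminopeptidase of the same M1 family as TRHDE that is known from invading placental trophoblast. CYSLTR2 encodes a G protein coupled receptor for cysteinyl leukotrienes, lipid mediators that leukocytes and mast cells make from arachidonic acid. STAC encodes an adaptor protein that binds L-type voltage-gated calcium channels, and PHYHIPL encodes a paralogue of PHYHIP, named for its binding to the peroxisomal enzyme phytanoyl-CoA hydroxylase. The role of PHYHIPL in marrow is not well described.

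Libraries were made from 500 ng of total RNA with a kit that reads the 3' end of polyadenylated transcripts. The BMAC library held 15122997 counts, the BM-MSC library 17069344 and the PBMC library 15445903, and levels are given as counts per 1000000 of the library total (CPM). With 1 library per population no difference has a replicate check and no p-value is given. Intervals in parentheses are 95% exact intervals for counting error alone. In mixed populations of cells, a difference in the number of cells that make a transcript and one in the amount per cell cannot be told apart.

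The labels of the populations were set against marker genes. All 10 mesenchymal stromal markers reached 10 CPM in BM-MSC and in BMAC, where they summed to 13505 and 11603 CPM, against 60.0 CPM in PBMC. The collagen genes COL1A1, COL1A2 and COL3A1 made most of the sums of BM-MSC and BMAC. THY1 made most of the sum of PBMC, at 48.7 CPM, and stood at 69.8 CPM in BMAC against 364 CPM in BM-MSC. Leukocyte markers summed to 20.6 CPM in BMAC and 9.02 CPM in BM-MSC, against 4265 CPM in PBMC. Of the leukocyte list only CD14 passed 10 CPM in BMAC. Unlike the sum of the list, it was highest there, at 17.3 CPM against 12.9 CPM in PBMC and 3.63 CPM in BM-MSC. CD3D, MS4A1, LYZ and CD74 were at 0 in BMAC, although CD3D was also at 0 in BM-MSC and only at 1.94 CPM in PBMC. One further property set BMAC apart from both other libraries. Of 20 rows placed only on the Y chromosome that reached 10 CPM in a library, 10 were at least 4-fold higher in BMAC than in both others. The share was 1.85% over all genes that reached this level, and 2 of the 20 rows were higher in PBMC than in BMAC. This comparison was added after the values were seen. EIF1AY, a translation factor gene among them, had 393 counts in BMAC, 3 in BM-MSC and 9 in PBMC. A difference between animals and one between populations cannot be told apart here, for any of the 5 genes.

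TRH had the largest excess in BMAC. It stood at 661 CPM in BMAC (648 to 674, from 10002 counts), 3.63 CPM in BM-MSC (2.78 to 4.66, 62 counts) and 0.259 CPM in PBMC (0.0706 to 0.663, 4 counts). BMAC were therefore 182-fold above BM-MSC (142 to 238) and 2554-fold above PBMC (997 to 9375). The low libraries also differed from each other, with BM-MSC 14.0-fold above PBMC (5.21 to 53.1), although both lay under 10 CPM.

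LVRN, the aminopeptidase, had 4170 counts or 276 CPM in BMAC (267 to 284). It stood at 1.87 CPM in BM-MSC (1.28 to 2.65, 32 counts) and 0.842 CPM in PBMC (0.448 to 1.44, 13 counts). The excess of BMAC was 147-fold over BM-MSC (104 to 215) and 328-fold over PBMC (191 to 616). The order of the low libraries was the same as for TRH, with a smaller gap of 2.23-fold (1.14 to 4.62).

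CYSLTR2, the leukotriene receptor, was above 10 CPM in blood as well. Its level was 133 CPM in BMAC (127 to 139, 2008 counts), 11.2 CPM in PBMC (9.59 to 13.0, 173 counts) and 1.29 CPM in BM-MSC (0.808 to 1.95, 22 counts). BMAC exceeded PBMC 11.9-fold (10.1 to 13.9) and BM-MSC 103-fold (67.9 to 165). PBMC were in turn 8.69-fold above BM-MSC (5.56 to 14.2), so that the marrow stromal library was the lowest of the 3.

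STAC, the calcium channel adaptor, reached 435 CPM in BMAC (425 to 446, 6585 counts). In the other libraries it was close to equal, at 2.81 CPM in BM-MSC (2.07 to 3.73, 48 counts) and 2.65 CPM in PBMC (1.90 to 3.60, 41 counts). BMAC were 155-fold above BM-MSC (117 to 210) and 164-fold above PBMC (121 to 229). The interval of the ratio between BM-MSC and PBMC, 0.684 to 1.65, included 1, so their order was not resolved at this depth.

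PHYHIPL was also well detected outside BMAC. It stood at 2501 CPM in BMAC (2476 to 2526, 37818 counts), 122 CPM in PBMC (116 to 128, 1883 counts) and 25.7 CPM in BM-MSC (23.3 to 28.2, 438 counts). That placed BMAC 20.5-fold above PBMC (19.6 to 21.5) and 97.5-fold above BM-MSC (88.7 to 107), with PBMC 4.75-fold above BM-MSC (4.28 to 5.28). The order BMAC, PBMC, BM-MSC was that of CYSLTR2, whereas for TRH and LVRN blood was the lowest.

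**Figure D1:**
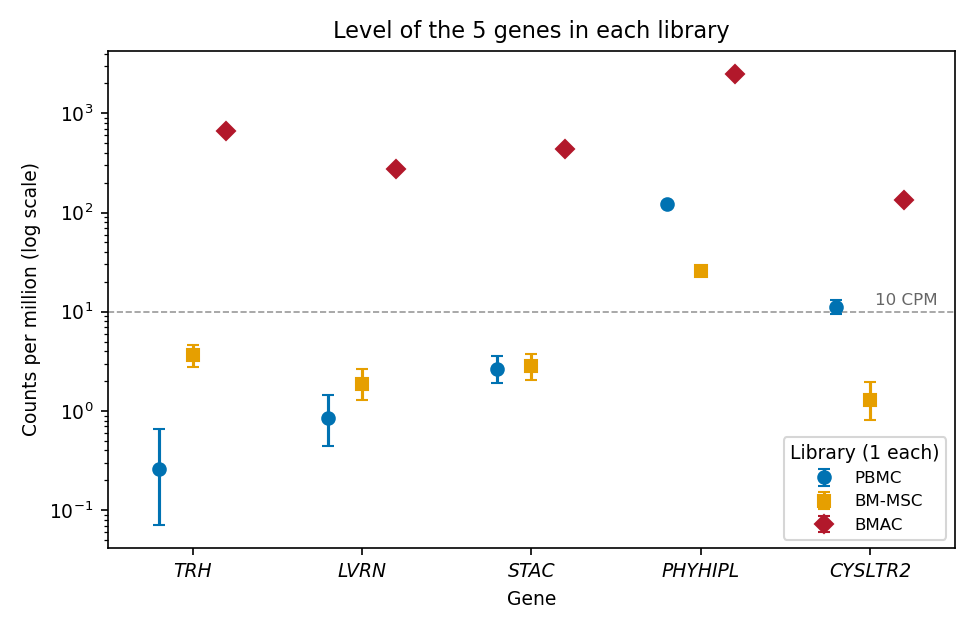
Level of TRH, LVRN, STAC, PHYHIPL and CYSLTR2 in the PBMC, BM-MSC and BMAC libraries, in CPM on a log axis; points are single libraries and bars are 95% exact Poisson intervals for counting error. BMAC lie highest for each gene, from 133 CPM for CYSLTR2 to 2501 CPM for PHYHIPL, while the order of PBMC and BM-MSC differs between genes and their intervals overlap for STAC and LVRN.

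A gene was counted as higher in a library when log2((CPM + 1)/(CPM + 1)) was at least 2, which is 4-fold, with 10 CPM and 10 counts or more in the higher of them. All 5 genes were higher in BMAC than in PBMC and than in BM-MSC, which is what they were chosen for. Across all genes tested, 14.0% were higher in BMAC than in PBMC, 3.21% were higher than in BM-MSC, and 1.85% (219 of 11861) were higher than in both. Among 9529 genes with at least 10 CPM in BMAC, ordered by the log2 ratio of BMAC to the higher of the other libraries, TRH came at rank 2 with 7.16, STAC at rank 5 with 6.84 and LVRN at rank 6 with 6.59. PHYHIPL followed at rank 26 with 4.35 and CYSLTR2 at rank 62 with 3.45, since both have higher levels in PBMC. Rank 1 was the unnamed row LOC110257905, placed on the Y chromosome, with 4001 counts in BMAC, 0 in BM-MSC and 1 in PBMC. With LOC symbols left out, the other genes among the 10 highest were AMCF-II, SAA3, IL1A, VCAM1, CXCL8, MMP1 and CACNA1D.

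Between PBMC and BM-MSC the members split. PHYHIPL and CYSLTR2 were counted as higher in PBMC than in BM-MSC, with log2 ratios of -2.20 and -2.41 for BM-MSC over PBMC, where 15.7% of 11428 genes were higher in PBMC. Neither was counted when libraries were scaled by TMM or median-of-ratios factors. PHYHIPL then fell under 4-fold, with log2 ratios of -1.88 and -1.85, and CYSLTR2 kept ratios of -2.15 and -2.13 but no longer held 10 CPM in PBMC. TRH, LVRN and STAC were not tested in this pair because both libraries lay under 10 CPM.

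**Figure D2:**
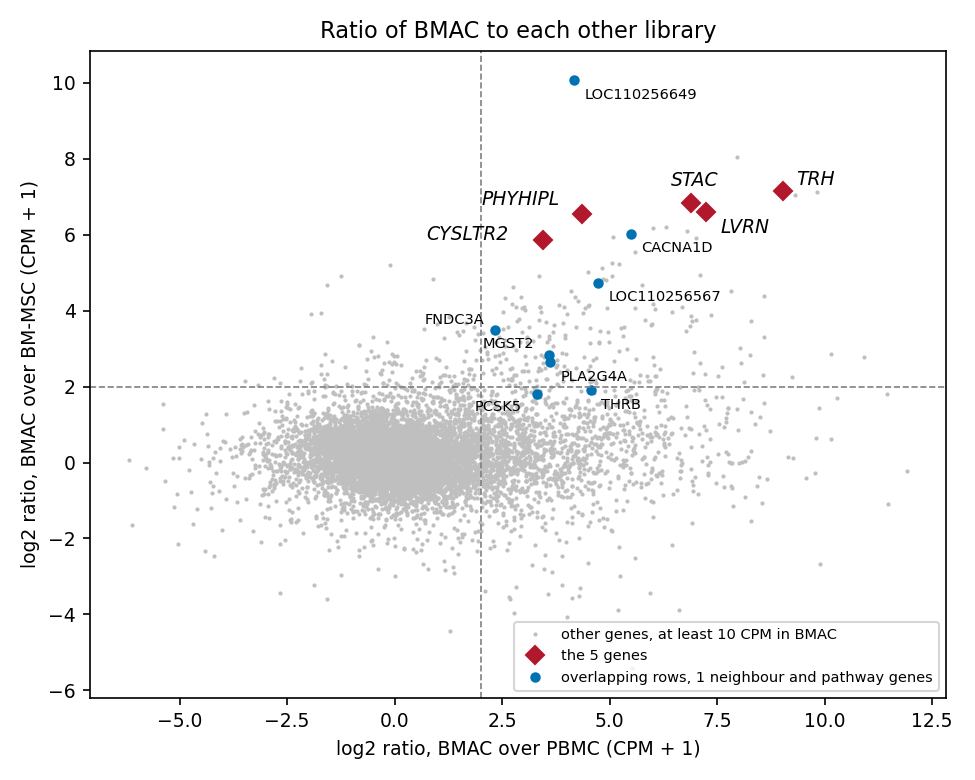
Log2 ratio of BMAC over PBMC (x axis) and of BMAC over BM-MSC (y axis), each with 1 CPM added, for every gene with at least 10 CPM in BMAC (grey), the 5 genes (red diamonds) and rows named in the text (blue); dashed lines mark a log2 ratio of 2. The 5 genes lie in the upper right, between 3.45 and 9.04 on the x axis and between 5.87 and 7.16 on the y axis, with CACNA1D close to them.

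Likeness to other genes was described by the distance between log2(CPM + 1) values over the 3 libraries, which for so few libraries mostly reflects level. The genes nearest to TRH were the acute-phase gene SAA3 (distance 0.31; 718 CPM in BMAC, 4.45 in BM-MSC, 0.129 in PBMC), the chemokine gene AMCF-II (0.93) and the transcription factor gene TBX3 (1.92). LVRN was nearest to the cytokine gene IL1A (0.73), the collagenase gene MMP1 (1.19) and the adhesion gene VCAM1 (1.22). For STAC the nearest were IL1A (0.98), the calcium channel gene CACNA1D (1.42) and the glypican gene GPC4 (1.58). CYSLTR2 had THBD (1.53), CPNE8 (1.75) and SPOCK1 (1.76, uncertain because LOC110259495 overlaps it) as nearest genes, and PHYHIPL had FNDC3A (2.68), PLA2G4A (3.01) and DLG2 (3.04). FNDC3A also lies beside CYSLTR2.

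Rows inside or beside the members were read to see how far the excess extended along the chromosome. In the RefSeq table of Sscrofa11.1, used for names and order only, 3 rows overlap a member and 20 are the nearest on either side, of which 18 have counts. Higher than in both other libraries by the 4-fold rule were 2 of the 3 overlapping and 3 of the 18 adjoining rows. Over all genes with at least 10 CPM in a library the share was 1.85%, whereas the 18 include rows under 10 CPM in every library. The 3 adjoining rows were ARL14EPL beside LVRN, and FNDC3A and LOC110255759, which both adjoin CYSLTR2.

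The overlapping row matters most for PHYHIPL. LOC110256649, a row annotated as protein coding that overlaps PHYHIPL, held 22968 counts in BMAC, 1285 in PBMC and 7 in BM-MSC. That is 60.7%, 68.2% and 1.60% of the counts of PHYHIPL in the same libraries. The row was 18.3-fold higher in BMAC than in PBMC (17.3 to 19.3) and 3703-fold higher than in BM-MSC (1797 to 9212), a far wider gap to BM-MSC than that of PHYHIPL itself. Whether a read can be counted for both rows is not given in the sources used here. If the counts of LOC110256649 are all contained in those of PHYHIPL and are taken away, an alternative chosen after the data were seen, 982 CPM remain in BMAC, 38.7 CPM in PBMC and 25.2 CPM in BM-MSC. The excess of BMAC is then 25.4-fold over PBMC (23.4 to 27.6) and 38.9-fold over BM-MSC (35.3 to 42.9), and PBMC exceed BM-MSC by 1.53-fold only. If the counts are added instead, the folds are 19.6 (18.9 to 20.3), 154 (140 to 170) and 7.87. In each of these sums BMAC were highest, whereas the size of the difference between PBMC and BM-MSC depended on how the rows share reads, which was not tested.

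The second gene overlapping PHYHIPL, FAM13C, was highest in BM-MSC, with 84.1 CPM there against 6.48 CPM in BMAC and 0.518 CPM in PBMC. FAM13C was 13.0-fold higher in BM-MSC than in BMAC (10.6 to 16.1). On the other side of PHYHIPL, BICC1, an RNA-binding protein gene, stood at 276 CPM in BMAC, 269 CPM in BM-MSC and 16.3 CPM in PBMC. The counts of FAM13C and BICC1 are uncertain, because PHYHIPL overlaps FAM13C and LOC110256651 overlaps BICC1.

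STAC is overlapped by the noncoding row LOC110256567, which had 388 counts in BMAC and 0 in the other libraries. That is at least 132-fold above PBMC and at least 146-fold above BM-MSC, each with 3 counts taken for 0, and 5.89% of the count of STAC. The adjoining genes ARPP21 and LRRFIP2 stood at 0.397 and 48.6 CPM in BMAC, at 0.0586 and 41.2 CPM in BM-MSC, and at 1.88 and 74.3 CPM in PBMC. Neither was higher in BMAC by the rule, although LRRFIP2 was 1.18-fold above BM-MSC (1.06 to 1.31). The counts of LOC110256567 and LRRFIP2 are uncertain, because STAC overlaps the former and LOC100737115 the latter.

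LVRN adjoins ARL14EPL, which was 27.8-fold above BM-MSC (14.8 to 58.6) and 13.2-fold above PBMC (8.29 to 22.3), at 16.3 CPM in BMAC from 246 counts. The gene beyond it, COMMD10, and the genes on the other side, AP3S1 and ATG12, were not higher in BMAC by the rule. AP3S1 and ATG12 overlap each other, so that their counts are uncertain.

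Around CYSLTR2 all 4 adjoining rows had their highest level in BMAC. FNDC3A, which encodes a fibronectin type III domain protein, stood at 1429 CPM in BMAC, 281 CPM in PBMC and 127 CPM in BM-MSC. Its excess in BMAC was 5.08-fold over PBMC (4.91 to 5.25) and 11.3-fold over BM-MSC (10.8 to 11.8). LOC110255759, a noncoding row, had 250 counts in BMAC, 12 in BM-MSC and 2 in PBMC and also passed the rule. LOC106509267 (143, 4 and 12 counts in BMAC, BM-MSC and PBMC) and LOC102166787 (27, 0 and 0 counts) stayed under 10 CPM.

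Beside TRH no adjoining gene with counts was higher in BMAC by the rule. TMCC1, RBSN and MRPS25 stood at 105, 82.3 and 37.2 CPM in BMAC, at 64.8, 81.5 and 36.7 CPM in BM-MSC, and at 213, 45.4 and 69.3 CPM in PBMC. MRPS25 overlaps NR2C2, which makes its count uncertain.

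**Figure D3:**
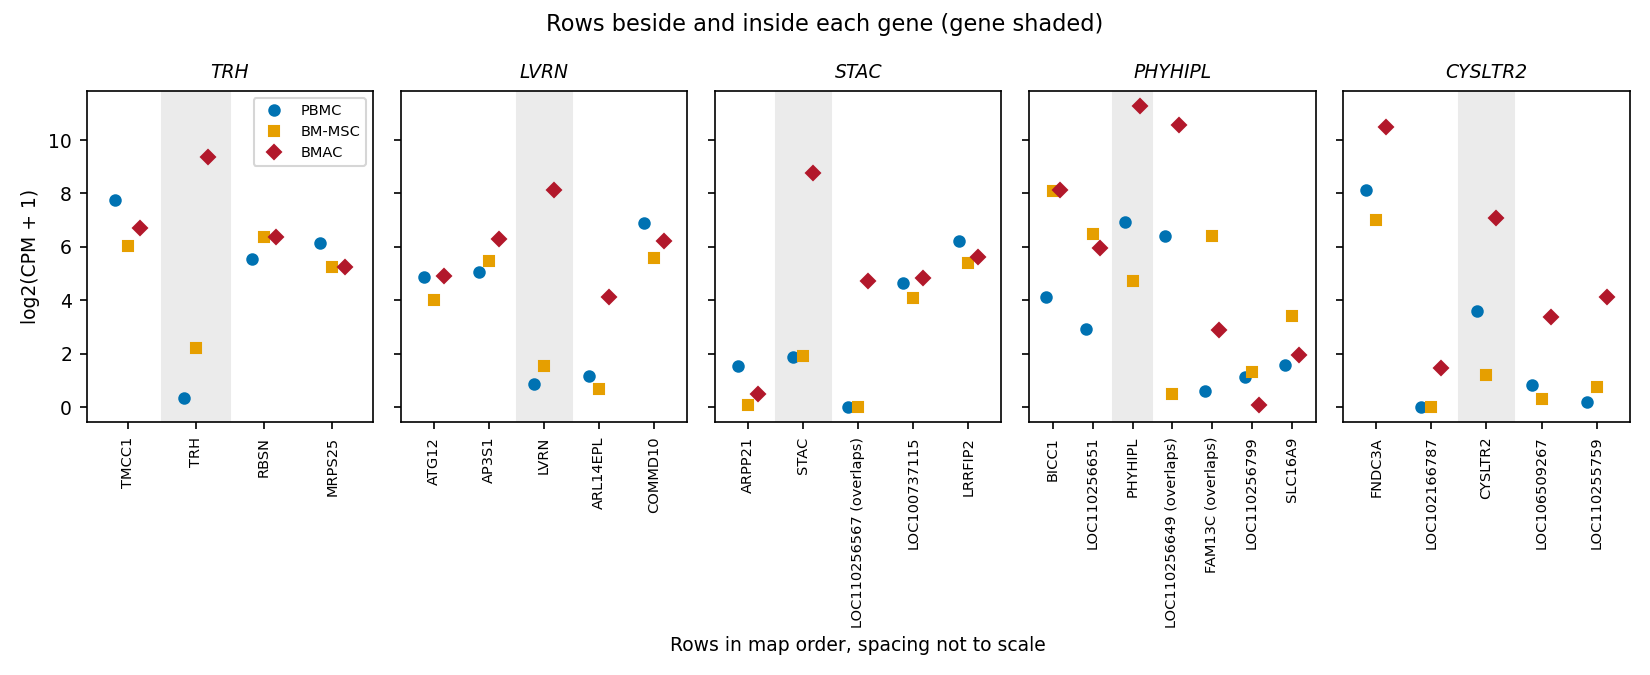
Log2(CPM + 1) of each gene (shaded) and of the rows that overlap or adjoin it, in map order without scale, for PBMC (circles), BM-MSC (squares) and BMAC (diamonds), 1 library each. Rows around CYSLTR2 and the rows overlapping PHYHIPL and STAC are highest in BMAC except FAM13C, whereas no neighbour of TRH is 4-fold higher in BMAC.

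Genes of the pathways of the members were then read from lists made by function. For TRH the list held genes that process, sense or degrade the hormone and genes of the thyroid axis. Of 15 such genes tested without TRH itself, 4 were higher in BMAC than in PBMC and 2 lower, where 14.0% and 12.8% of all genes were. Their median log2 ratio was 1.04, beside -0.12 over all genes. Against BM-MSC 0 of 15 were higher and 1 was lower, where 3.21% and 2.90% of all genes were, with a median of 0.16 beside 0.09. When ribosomal RNA and mitochondrial rows were left out of the total, this median turned to -0.03, beside -0.02 over all genes. The receptor TRHR had 0 counts in every library. Taking 3 counts as the limit that a count of 0 allows, its level was at most 0.198 CPM in BMAC, 0.176 CPM in BM-MSC and 0.194 CPM in PBMC. TRHDE, the degrading enzyme, stood at 1.98 CPM in BMAC, 1.87 CPM in BM-MSC and 3.82 CPM in PBMC.

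Enzymes that mature peptide hormones were unequally represented. PCSK1 and PCSK2, the convertases of regulated secretion, were at 2.25 and 1.52 CPM in BMAC, and the count of PCSK1 is uncertain because LOC106508433, which overlaps it, holds more counts. PCSK5, a convertase of wider distribution, stood at 806 CPM in BMAC, 229 CPM in BM-MSC and 79.7 CPM in PBMC, which is 10.1-fold above PBMC (9.54 to 10.7) and 3.51-fold above BM-MSC (3.39 to 3.64). PAM, which amidates peptide ends, was at 154 CPM in BMAC, 88.5 CPM in BM-MSC and 74.1 CPM in PBMC, within 4-fold throughout. CPE, the carboxypeptidase of secretory granules, was at 18.6 CPM in BMAC and 34.1 CPM in PBMC, and CPZ was at 16.7 CPM in BMAC, 14.8 CPM in BM-MSC and 0 in PBMC. SCG5, a chaperone of PCSK2, ran the other way, at 1.39 CPM in BMAC, 8.55 CPM in BM-MSC and 40.8 CPM in PBMC.

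In the thyroid axis itself, THRB, a thyroid hormone receptor known to repress TRH in the hypothalamus, stood at 317 CPM in BMAC, 83.7 CPM in BM-MSC and 12.4 CPM in PBMC. THRB was 25.5-fold above PBMC (22.1 to 29.6) and 3.79-fold above BM-MSC (3.57 to 4.02), the latter just under the 4-fold rule. The remaining genes of the list that passed the rule, named after their values were seen, were PCSK6, higher in BMAC than in PBMC, SLC16A10, lower than in PBMC, and DIO2, an enzyme that activates thyroid hormone, lower than in BM-MSC (0.926 against 17.5 CPM).

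Precursors of other peptide hormones were mostly low. Of 46 with a row 5 reached 10 CPM in a library, and 1 of these was higher in BMAC than in both others, beside 1.85% of all genes tested. It was APLN, the precursor of the vascular peptide apelin, at 63.1 CPM against 2.52 CPM in BM-MSC and 0 in PBMC. Against BM-MSC 1 of 4 tested was higher in BMAC and 0 lower (3.21% and 2.90% of all genes). With TMM factors, median-of-ratios factors or the total without ribosomal RNA and mitochondrial rows, 2 of 5 were higher and 1 lower. APLN was 25.1-fold above BM-MSC (18.5 to 34.9) and at least 325-fold above PBMC. ADM, the precursor of adrenomedullin, was at 73.3 CPM in BMAC and 68.7 CPM in BM-MSC but 0.129 CPM in PBMC. Of the neuronal and neuroendocrine markers, 1 of 9 reached 10 CPM in BMAC. It was SYT1, a synaptic vesicle calcium sensor, at 353 CPM against 27.2 CPM in BM-MSC and 4.60 CPM in PBMC. The list summed to 364, 32.3 and 13.7 CPM in these libraries. INSM1 was at 0 in BMAC and BM-MSC and had 2 counts in PBMC, and the part of such cells in the level of TRH was not tested.

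Other membrane peptidases did not follow LVRN. Without LVRN, 0 of 11 tested were higher in BMAC than in BM-MSC and 0 lower (3.21% and 2.90% of all genes). Their median log2 ratio was 0.02, beside 0.09 over all genes. Under the other scalings it turned to between -0.08 and -0.03, where that of all genes lay between -0.02 and 0.04. Against PBMC 2 of 12 were higher, FAP and ANPEP, and 2 lower, LNPEP and ERAP2, near the 14.0% and 12.8% of all genes. The median log2 ratio of the 12 over PBMC was 0.96, however, beside -0.12 over all genes. With TMM and median-of-ratios factors it was 1.23 and 1.24, beside 0.21 and 0.22. ANPEP, the aminopeptidase also known as the stromal and myeloid surface antigen CD13, was highest in BM-MSC at 115 CPM, with 43.7 CPM in BMAC and 1.17 CPM in PBMC. LNPEP, an aminopeptidase closely related to ERAP2, stood at 24.8 CPM in BMAC, 24.5 CPM in BM-MSC and 509 CPM in PBMC. ERAP2, which trims peptides for antigen presentation, was at 4.43, 9.14 and 189 CPM in the same order.

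For CYSLTR2 the list held the enzymes that make and break down cysteinyl leukotrienes, their receptors and the G protein route below them. Of 11 tested without CYSLTR2, 4 were higher in BMAC than in PBMC and 2 lower (14.0% and 12.8% of all genes), with a median log2 ratio of 1.13 beside -0.12 over all genes. Against BM-MSC 2 of 9 were higher and 0 lower (3.21% and 2.90% of all genes), with a median of 0.50 beside 0.09. PLA2G4A, the phospholipase that frees arachidonic acid, stood at 652 CPM in BMAC, 103 CPM in BM-MSC and 52.2 CPM in PBMC. BMAC exceeded BM-MSC 6.35-fold (6.03 to 6.68) and PBMC 12.5-fold (11.6 to 13.4). Its row overlaps that of PTGS2, the prostaglandin synthase gene, which had 435 CPM in BMAC, so its value is uncertain. MGST2, a microsomal enzyme that can conjugate glutathione to leukotriene precursors, was at 65.8, 8.32 and 4.53 CPM in the same order, with an excess of 7.91-fold (6.63 to 9.50) over BM-MSC and 14.5-fold (11.4 to 18.8) over PBMC. MGST2 overlaps MAML3, whose row held more counts than MGST2, so its value is uncertain.

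The dedicated leukotriene enzymes were low in both marrow libraries. ALOX5, which starts leukotriene synthesis, was at 1.39 CPM in BMAC, 0.352 CPM in BM-MSC and 4.08 CPM in PBMC. Its partner ALOX5AP stood at 6.81, 4.28 and 52.1 CPM, 7.64-fold lower in BMAC than in PBMC (6.22 to 9.48). LTC4S, which conjugates glutathione, was at 2.58 CPM in BMAC, and its row is overlapped by LOC106507308, which holds more counts. The peptidases of leukotriene turnover were low as well, with DPEP1 at 0.198 CPM and GGT5 at 0.595 CPM in BMAC, and DPEP2 was not analysed here. The other receptor, CYSLTR1, ran against CYSLTR2, with 94 counts in PBMC, 2 in BMAC and 0 in BM-MSC. PLCB1, a phospholipase activated by such receptors, was high in both marrow libraries at 590 CPM in BMAC and 416 CPM in BM-MSC against 31.6 CPM in PBMC. PLCB3, the fourth gene higher in BMAC than in PBMC, was named after its value was seen.

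Leukocytes, mast cells and endothelial cells are known to carry CYSLTR2. Granulocyte and mast cell markers summed to 3.57 CPM in BMAC, 5.04 CPM in BM-MSC and 301 CPM in PBMC, with 0 of 9 at 10 CPM in BMAC. MS4A2 alone stood at 277 CPM in PBMC. EPX had 0 counts in BMAC, 6 in BM-MSC and 7 in PBMC, and ELANE had 4, 0 and 0. Endothelial markers summed to 33.2, 19.0 and 169 CPM, with 1 of 8, PECAM1, at 10 CPM in BMAC. PECAM1 made most of each sum, at 27.7, 15.2 and 145 CPM. KDR had 0, 1 and 5 counts, and CLDN5 was at 0 in every library.

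For STAC the list held its paralogues, the subunits of voltage-gated calcium channels and genes of excitation-contraction coupling. Of 14 tested without STAC, 1 was higher in BMAC than in BM-MSC and 2 were lower (3.21% and 2.90% of all genes), with a median log2 ratio of -0.64 beside 0.09 over all genes. The 1 higher gene was CACNA1D, which encodes a pore-forming subunit of L-type channels, the channel class that STAC proteins bind. CACNA1D stood at 389 CPM in BMAC (5890 counts), 4.98 CPM in BM-MSC (85 counts) and 7.70 CPM in PBMC (119 counts). It was 78.2-fold above BM-MSC (63.1 to 98.1) and 50.6-fold above PBMC (42.2 to 61.1). CACNA1C, the other widely expressed L-type pore subunit, followed less steeply, at 169 CPM in BMAC, 58.5 CPM in BM-MSC and 4.53 CPM in PBMC, and was 2.88-fold above BM-MSC (2.68 to 3.10). CACNA1S, the skeletal muscle subunit, was at 0.595 CPM in BMAC.

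The paralogues of STAC did not share its pattern. STAC2 was at 9.19 CPM in BMAC, 9.26 CPM in BM-MSC and 7.06 CPM in PBMC, and STAC3, which is needed for muscle contraction, was at 1.19, 0.527 and 5.37 CPM. Against PBMC 6 of 17 genes were higher in BMAC and 1, the accessory subunit gene CACNB4, was lower (14.0% and 12.8% of all genes), with a median of 0.61 beside -0.12. The accessory subunit CACNB3 was at 21.0 CPM in BMAC and 27.5 CPM in BM-MSC. JPH2, which ties the cell membrane to calcium stores in muscle, was 12.6-fold lower in BMAC than in BM-MSC (10.7 to 14.8), and the second lower gene, CACNA1A, was named after its value was seen. Muscle markers summed to 234 CPM in BMAC against 6829 CPM in BM-MSC and 16.3 CPM in PBMC, with 4 of 9 at 10 CPM in BMAC. ACTA2 made most of the sums of BMAC and BM-MSC, at 152 and 6566 CPM. TTN was highest in BMAC, at 52.0 CPM against 18.9 CPM in BM-MSC and 5.37 CPM in PBMC. MYOD1 and MYOG were at 0 in every library, and DES was at 0 in BMAC and PBMC with 1 count in BM-MSC.

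For PHYHIPL the list held its paralogue and genes of peroxisomal fatty acid oxidation. Without PHYHIPL, 0 of 15 were higher in BMAC than in BM-MSC and 0 lower (3.21% and 2.90% of all genes), with a median log2 ratio of 0.24 beside 0.09 over all genes. PHYHIP had 0 counts in both marrow libraries and 8 in PBMC. PHYH, the hydroxylase for which PHYHIP is named, was at 51.1 CPM in BMAC, 94.8 CPM in BM-MSC and 8.80 CPM in PBMC, 1.86-fold lower in BMAC than in BM-MSC (1.70 to 2.02). Against PBMC, PHYH and the aldehyde dehydrogenase gene ALDH3A2 were higher in BMAC and the acyl-CoA synthetase gene ACSL1 was lower (2 and 1 of 15, beside 14.0% and 12.8% of all genes). The median was -0.10 beside -0.12 over all genes. With TMM and median-of-ratios factors this median turned to 0.17 and 0.18, beside 0.21 and 0.22 over all genes. Under both, 3 of 15 were higher in BMAC than in PBMC and 0 lower, as ACSL1 no longer passed. Over all genes, 1826 of 11217 were higher and 1215 lower with TMM factors. ACSL4, which activates arachidonic acid, stood at 405 CPM in BMAC, 119 CPM in BM-MSC and 134 CPM in PBMC, and was 3.41-fold above BM-MSC (3.25 to 3.59), under the rule.

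**Figure D4:**
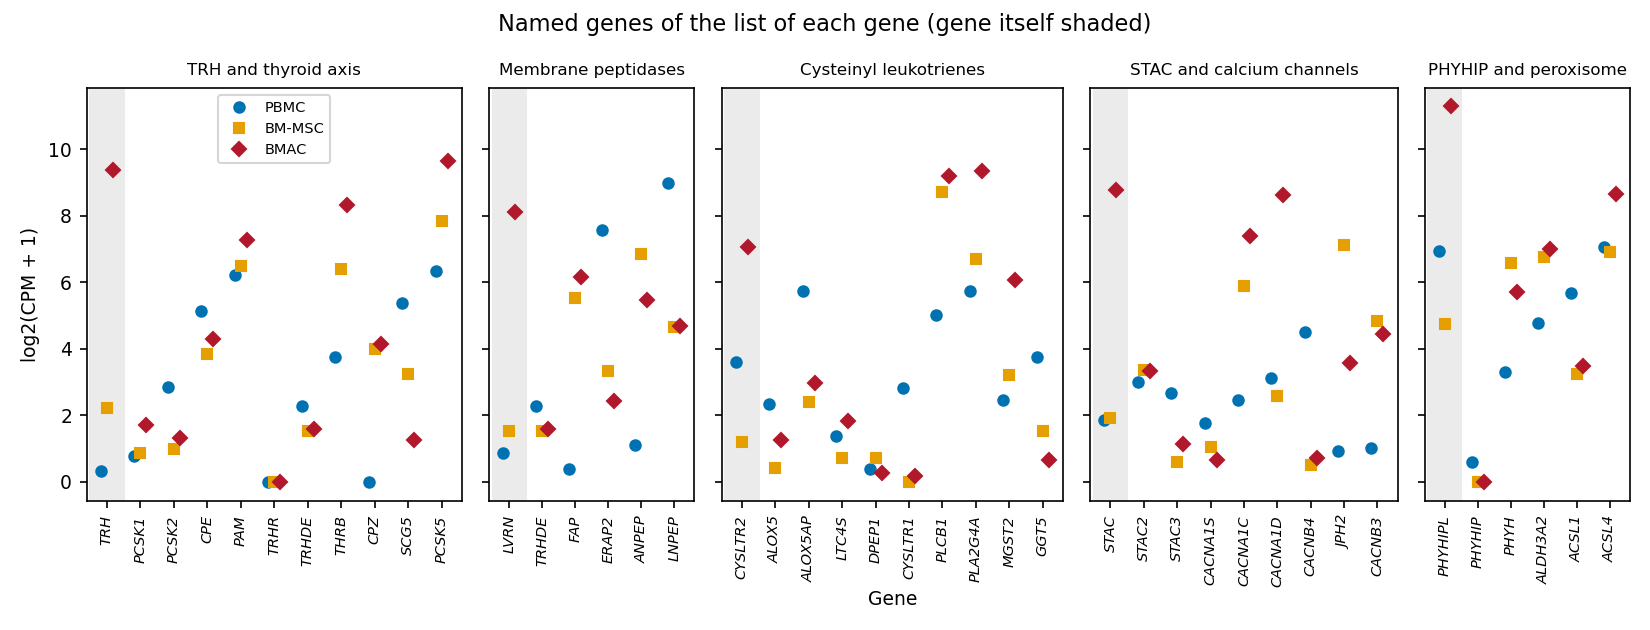
Log2(CPM + 1) of each of the 5 genes (shaded) and of the genes of its list described in the text, for PBMC (circles), BM-MSC (squares) and BMAC (diamonds), 1 library each. CACNA1D, PLA2G4A and MGST2 are the list genes counted as higher in BMAC than in both other libraries, while TRHR and PHYHIP are at or near 0 in every library and CYSLTR1 is highest in PBMC.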

How the data were processed

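The authors deposited whole-number counts per annotation row for each library, and per the submitters' processing notes Bowtie2 and bedtools were used. Build, annotation, strand setting and the treatment of reads with several matches were not given in the sources used here, so genes on overlapping rows are named as uncertain where the other row holds at least 25% of their count. Counts of 26965 rows were summed over 26466 symbols, all of them in the RefSeq table of Sscrofa11.1. Ratios carried a pseudocount of 1 CPM, and folds are CPM ratios without it, with Clopper-Pearson intervals (scipy 1.17.1). Computations were tested on simulated data. Alternatives were TMM (edgeR 4.0.16) and median-of-ratios factors (DESeq2 1.42.0), a total without ribosomal RNA and mitochondrial rows, other pseudocounts, floors and fold limits, and the highest row per symbol. No molecular identifiers are stated, so intervals cover counting error only.

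The members and lists were chosen with earlier results of these data known. Named were the members; overlapping rows and 2 neighbours a side; 18 pathway genes whatever their values; up to 4 further genes a list with the largest ratio and 10 CPM; the 10 largest ratios of BMAC over both libraries; and the 3 likest genes a member. Sequences and promoter motifs were not analysed here. Some genes of the lists are not reported here.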

Additional observations from a re-analysis of the deposited data

How the results depend on the processing

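All 5 genes stayed higher in BMAC than in both other libraries under each alternative for scaling, pseudocount, floor, fold limit and duplicate rows. Over 64 recomputed ratios of BMAC the lowest log2 ratio was 3.09, that of CYSLTR2 over PBMC with a pseudocount of 5 CPM. Of the 64, 48 stayed within the counting interval of the main ratio and 16 fell outside it. With a pseudocount of 5 CPM, for example, TRH over PBMC went from 9.04 to 6.99. The number of genes higher in BMAC than in PBMC, than in BM-MSC and than in both was 1591, 331 and 219, and 1630 were higher in BM-MSC than in PBMC. In that order of 4, the numbers were 907, 176, 133 and 856 with a floor of 50 CPM, 2817, 1140, 649 and 3014 at 2-fold, and 977, 133, 90 and 975 at 8-fold. A pseudocount of 5 CPM left 198 genes higher in BMAC than in BM-MSC and 145 higher than in both. The median log2 ratio of all genes went from -0.12 to 0.21 and 0.22 for BMAC over PBMC with TMM and median-of-ratios factors, and from -0.16 to 0.23 and 0.26 for BM-MSC over PBMC. The share of genes higher in BM-MSC among those differing from PBMC went from 47.6% to 58.5% and 59.5%. CYSLTR2 was under 4-fold between PBMC and BM-MSC with a pseudocount of 5 CPM, at -1.37. No paired analysis was possible because each population has 1 library. Depth limits the low side: 4 counts of TRH in PBMC leave its fold there known only within 997 to 9375.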
